A study of Drosophila melanogaster with 8 samples.

Results

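The replication-dependent histone genes of Drosophila melanogaster were described in RNA from larval eye discs, the epithelial sacs that form the adult eye and antenna. Members were all genes whose symbol begins with His1:, His2A:, His2B:, His3: or His4:. There were 111 of them among 15682 genes in the tables, made up of 23 His1, 20 His2A, 23 His2B, 23 His3 and 22 His4 copies. All 111 passed the filter on low counts, which kept 11068 genes. The discs came from larvae of the third instar grown at 25 °C, in pools of 30 to 50 discs per sample. The 4 stocks had 2 biological replicates each. They were Canton S (a wild-type laboratory strain), mir-11 KO(w-) (a stock labelled as a knockout of the microRNA mir-11, with w- in its name), and RMCE-1 and RMCE-2, both labelled with mir-11 and mir-998. RMCE usually stands for recombinase-mediated cassette exchange, a method that swaps a DNA cassette into a prepared position of the genome. Which sequences RMCE-1 and RMCE-2 carry, and how far the stocks share a genetic background with Canton S, is not stated in the labels. The design text of the series sets wild type against miR-998 that is left unchecked.

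Replication-dependent histones package newly made DNA, and their genes are transcribed at high rates during S phase. Histones H2A, H2B, H3 and H4 form the core particle around which DNA is wound, and the linker histone H1 binds the DNA between particles. Messenger RNAs of these genes usually end in a conserved stem-loop instead of a poly(A) tail. The stem-loop binding protein and the U7 small nuclear RNA act in forming that end, and transcription and processing take place in a nuclear compartment called the histone locus body. In the eye disc, cells divide ahead of the morphogenetic furrow, stop in G1 within it and pass one more synchronous S phase behind it. Libraries of total RNA depleted of ribosomal RNA, as here, do not select for poly(A) tails.

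Total counts ran from 11929158 to 19670470 per library. Levels are counts per 1000000 reads (CPM) after TMM, a between-library normalization whose factors lay between 0.9711 and 1.036. The mir-11 gene drew 2 reads in Canton S replicate 1, 1 read in RMCE-2 replicate 2 and 0 in each of the other 6 libraries, so the knockout label could not be checked. The mir-998 gene drew 9 to 31 reads per library. Eye disc identity genes, such as eyeless and eyes absent, summed to between 1824 and 2161 CPM in all 8 libraries. A pair of libraries stood apart. RMCE-1 replicate 2 had the most fat body and salivary gland transcripts, and Canton S replicate 1 had 685 CPM of gut markers against 7.92 to 27.4 CPM in the other 7 libraries. Testis markers were also highest in Canton S replicate 1, at 40.6 CPM against 16.8 to 20.1 CPM elsewhere. Summed blood cell and glial markers were highest in Canton S replicate 2.

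The copies lay in a single tandem array on chromosome arm 2L, from 21416953 to 21541681 in the BDGP6.54 assembly with the Ensembl 115 annotation, a span of 124.7 kb. As annotated there, the array held 23 repeat units, each read from a His1 copy in the order H1, H2B, H2A, H4, H3. Units 5 and 6 lay further apart than other neighbours, from 21440715 to 21451052. His1, His2A and His3 were annotated on the plus strand and His2B and His4 on the minus strand. In 19 units all 5 types were present. Units 1, 3 and 5 had no His2A gene, and the pseudogenes His-Psi:CR33802, His-Psi:CR33805 and His-Psi:CR33811 lay there between the His2B and His4 copies. Unit 23 had no His4 gene, and His-Psi:CR33867 lay between its His2A and His3 copies. The 8 histone pseudogenes together drew 2823 to 5406 reads per library and were not counted as members. The labels do not name the assembly behind the authors' counting. These positions and the number of units therefore belong to the annotation and not to the authors' alignment. How many units the stocks carry was not measured.

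Histone transcripts made up similar totals in Canton S, mir-11 KO(w-) and RMCE-1 replicate 1, a higher total in RMCE-1 replicate 2 and lower totals in RMCE-2. Summed over all 111 copies, the level was 7019 and 6490 CPM for Canton S replicates 1 and 2, 6933 and 6973 CPM for mir-11 KO(w-), 6793 and 7706 CPM for RMCE-1, and 5460 and 6092 CPM for RMCE-2. The stock means were 6754 ± 374 CPM for Canton S, 6953 ± 28.3 CPM for mir-11 KO(w-), 7250 ± 646 CPM for RMCE-1 and 5776 ± 447 CPM for RMCE-2 (SD, n = 2 each). Both RMCE-2 libraries lay below all 6 others, and the other 3 stocks overlapped one another. In tissue RNA, fewer cells in S phase and less histone RNA per cell cannot be told apart.

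Of the core histones, His2B gave the highest sum. Its 23 copies summed to 2158 and 2007 CPM for Canton S, 2029 and 1978 CPM for mir-11 KO(w-), 2041 and 1893 CPM for RMCE-1, and 1529 and 1729 CPM for RMCE-2. His2A, the partner of H2B in the dimers of the core particle, summed to 1306 and 1245 CPM for Canton S, 1273 and 1273 CPM for mir-11 KO(w-), 1274 and 1256 CPM for RMCE-1, and 1023 and 1155 CPM for RMCE-2. For both types the 6 libraries of the first 3 stocks lay close together and both RMCE-2 libraries lay below them.

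His3 and His4, which pair in the central tetramer, showed one further feature, a high value in RMCE-1 replicate 2. His3 summed to 909 and 854 CPM for Canton S, 930 and 958 CPM for mir-11 KO(w-), 914 and 1144 CPM for RMCE-1, and 706 and 802 CPM for RMCE-2. For His4 the sums were 1267 and 1167 CPM for Canton S, 1272 and 1246 CPM for mir-11 KO(w-), 1233 and 1533 CPM for RMCE-1, and 1068 and 1113 CPM for RMCE-2. Both RMCE-2 libraries were again the 2 lowest.

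The linker histone His1 varied most between libraries. It summed to 1379 and 1217 CPM for Canton S, 1429 and 1518 CPM for mir-11 KO(w-), 1332 and 1881 CPM for RMCE-1, and 1134 and 1293 CPM for RMCE-2. RMCE-1 replicate 2 was the highest library by a wide margin. RMCE-2 replicate 1 was the lowest, whereas RMCE-2 replicate 2 lay above Canton S replicate 2, so the groups overlapped.

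**Figure D1:**
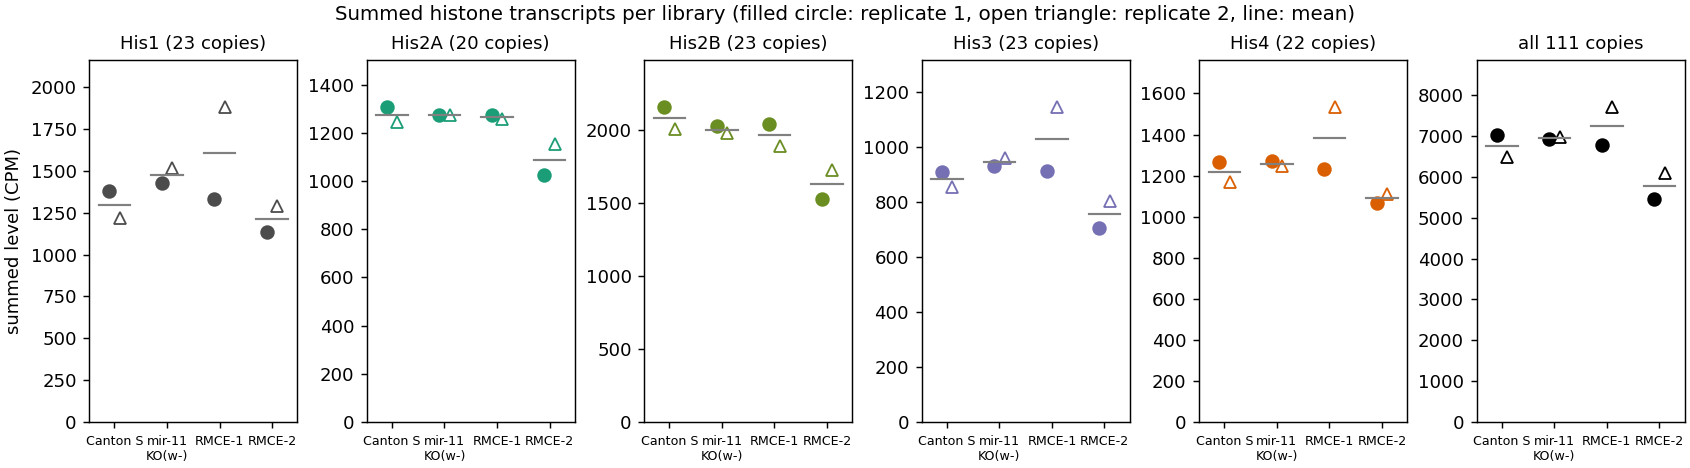
Summed level in CPM (y axis, from 0) of the copies of each histone type and of all 111 copies, by stock (x axis). Filled circles are replicate 1, open triangles replicate 2 and lines stock means. The all-copies sums of RMCE-2 (5460 and 6092 CPM) lie below those of the 6 other libraries (6490 to 7706 CPM), and RMCE-1 replicate 2 is highest for His1, His3 and His4 and not for His2A or His2B.

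RMCE-1 replicate 2 exceeded replicate 1 for His1, His3 and His4, and for His2A and His2B it did not. The log2 difference of replicate 2 from replicate 1 was 0.50 for His1, 0.32 for His3 and 0.31 for His4, -0.02 for His2A and -0.11 for His2B, and 22 of 23 His2B copies were lower in replicate 2. RMCE-1 replicate 2 was the highest of the 8 libraries for all 23 His1, all 23 His3 and all 22 His4 copies, and for 0 of 20 His2A and 0 of 23 His2B copies. It was the highest library for 17.1% of all 11068 genes tested. This feature was picked out after the values were seen, and copies that share sequence may share reads, so the copies are not separate observations.

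As a share of all histone reads, His1 took 24.4% in RMCE-1 replicate 2 (21931 of 89868 reads, exact 95% interval 24.12 to 24.69%) against 18.75 to 21.77% in the other 7 libraries. The interval covers counting error only. His2B took 24.57% there (24.29 to 24.85%) against 28.0 to 30.93% elsewhere, and His2A took 16.29% (16.05 to 16.54%) against 18.26 to 19.19%. His3 took 14.84% against 12.93 to 13.74%, and His4 took 19.89% against 17.86 to 19.56%. The ratio of summed His1 to summed His2A was 1.498 in that library and 0.977 to 1.192 in the other 7. Ratios within the dimer and within the tetramer stayed inside the range of the others, with His2A to His2B at 0.663 against 0.605 to 0.669, and His3 to His4 at 0.746 against 0.661 to 0.769.

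The same library held the most fat body and salivary gland transcripts, which come from other larval tissues. The 9 fat body markers, such as the larval serum protein gene Lsp2, summed to 8461 CPM there against 67.6 to 2065 CPM in the other 7 libraries, and 7 of the 9 were at their highest. The 11 salivary gland markers, such as the glue protein gene Sgs3, summed to 4781 CPM there against 189 to 2370 CPM elsewhere. Of these, 7 of the 11 were at their highest. That library was the highest for 17.1% of all genes tested. The fat body markers without this order were Lsp1gamma, at 22.0 CPM against up to 190.5 CPM elsewhere, and Cyp4e1. Those of the salivary gland were Sgs1, ng1, ng3 and CrebA, with CrebA at 139 CPM against up to 182 CPM elsewhere. None of the 20 markers was at 0 in that library. Their part in the higher His1, His3 and His4 values was not tested.

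**Figure D2:**
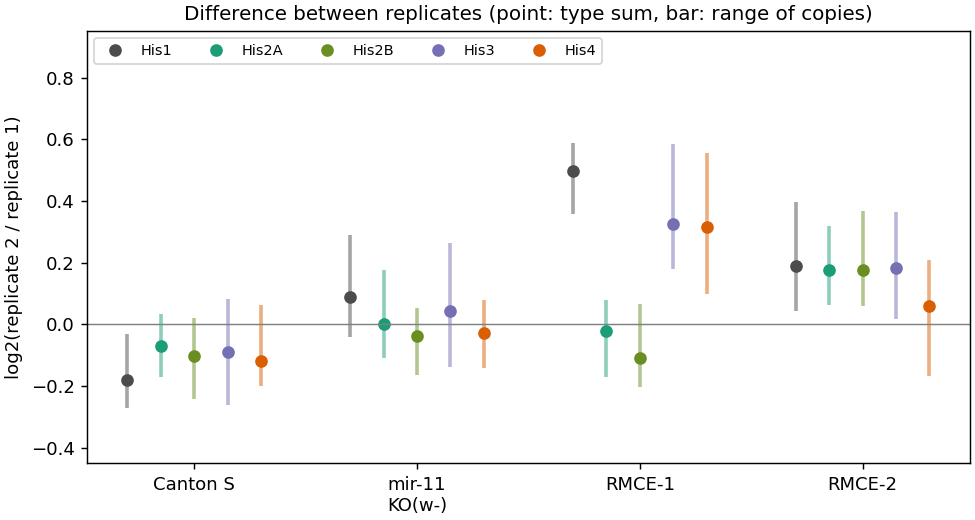
Log2 ratio of replicate 2 to replicate 1 (y axis) within each stock (x axis) for the summed copies of each type (points), with the lowest and highest single copy (bars). In RMCE-1 the sums lie at 0.50 for His1, 0.32 for His3 and 0.31 for His4 and at -0.02 and -0.11 for His2A and His2B.

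In the other 3 stocks the log2 differences of His1, His3 and His4 between replicates were smaller than in RMCE-1, whereas those of His2A in Canton S and of His2A and His2B in RMCE-2 were larger in size. In Canton S replicate 2 was lower than replicate 1 for all 5 type sums, by 0.07 to 0.18 on the log2 scale. In mir-11 KO(w-) the log2 difference ran from -0.04 for His2B to 0.09 for His1. In RMCE-2 replicate 2 was higher than replicate 1 for all 5 types, at 0.19 for His1, 0.17 for His2A, 0.18 for His2B, 0.18 for His3 and 0.06 for His4, and 104 of 111 copies had that direction.

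Levels within a type were even for most copies. Over the means of 8 libraries, His2A copies ranged from 57.5 CPM (His2A:CG33856) to 62.9 CPM (His2A:CG33847), and His3 copies from 36.6 CPM (His3:CG33830) to 41.1 CPM (His3:CG33815). Leaving out 2 high copies, His2B copies ranged from 61.5 CPM (His2B:CG33902) to 64.4 CPM (His2B:CG33904). The variance of the copies' counts divided by their mean, which is near 1 when reads fall on copies at random and evenly, was 0.606 to 1.288 over the 8 libraries for those 21 His2B copies. For His2A it was 0.664 to 2.106, and for His3 1.148 to 2.542. The labels do not say how reads that match several copies were assigned, so evenness between copies need not reflect equal transcription.

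His1 and His4 copies were less even, with variance over mean of 3.574 to 9.018 and, without the 2 high copies, 6.363 to 9.586. The lowest His1 copy was His1:CG33834 in unit 13, at 51.6 CPM, and the highest was His1:CG31617 in unit 2, at 65.6 CPM. In every library His1:CG33834 and His1:CG33858 (unit 21, 52.7 CPM) lay below each of 19 other His1 copies. His1:CG33855 in unit 20 did so in 7 of 8 libraries and His1:CG33861 in unit 22 in 4 of 8. Among His4 copies, 4 formed a low set, His4:CG33869 in unit 22, His4:CG33877 in unit 18, His4:CG33879 in unit 17 and His4:CG33881 in unit 16, with means of 31.1, 30.3, 31.1 and 31.7 CPM. All 4 lay below each of 16 other His4 copies in 8 of 8 libraries. These low sets were chosen after their values were seen.

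The first 2 units of the array held 4 copies far above the rest in assigned reads. How reads that match several copies were assigned is not stated, so these levels need not reflect higher transcription. His2B:CG33910 (unit 1, 2L 21418112 to 21418706) had 310 and 285 CPM for Canton S, 285 and 282 CPM for mir-11 KO(w-), 292 and 266 CPM for RMCE-1, and 220 and 239 CPM for RMCE-2. His2B:CG17949 (unit 2, 2L 21423014 to 21423608) had 368 and 338 CPM for Canton S, 330 and 325 CPM for mir-11 KO(w-), 339 and 308 CPM for RMCE-1, and 245 and 287 CPM for RMCE-2. Both were the highest His2B copies in every library, at 4.14 to 4.42 and 4.79 to 5.24 times the median of the other 21 His2B copies.

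The other high pair were His4 copies. His4:CG33909 (unit 1, 2L 21419531 to 21419943) had 239 and 212 CPM for Canton S, 233 and 228 CPM for mir-11 KO(w-), 228 and 283 CPM for RMCE-1, and 198 and 212 CPM for RMCE-2. His4:CG31611 (unit 2, 2L 21424593 to 21425005) had 240 and 222 CPM for Canton S, 236 and 227 CPM for mir-11 KO(w-), 231 and 279 CPM for RMCE-1, and 190 and 206 CPM for RMCE-2. They stood at 5.45 to 5.78 and 5.23 to 5.80 times the median of 16 other His4 copies, which leaves out the low set. Both were at their highest in RMCE-1 replicate 2, as their type was, and the high His2B copies were not. Neighbours in the same units were ordinary. His1:CG33801 and His3:CG33803 in unit 1 had means of 61.0 and 40.0 CPM, and His1:CG31617, His2A:CG31618 and His3:CG31613 in unit 2 had 65.6, 61.9 and 40.2 CPM. One of the high His2B copies held 13.8 to 14.4% of its type's reads and the other 16.0 to 17.0%, where 23 equal copies would share them evenly.

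**Figure D3:**
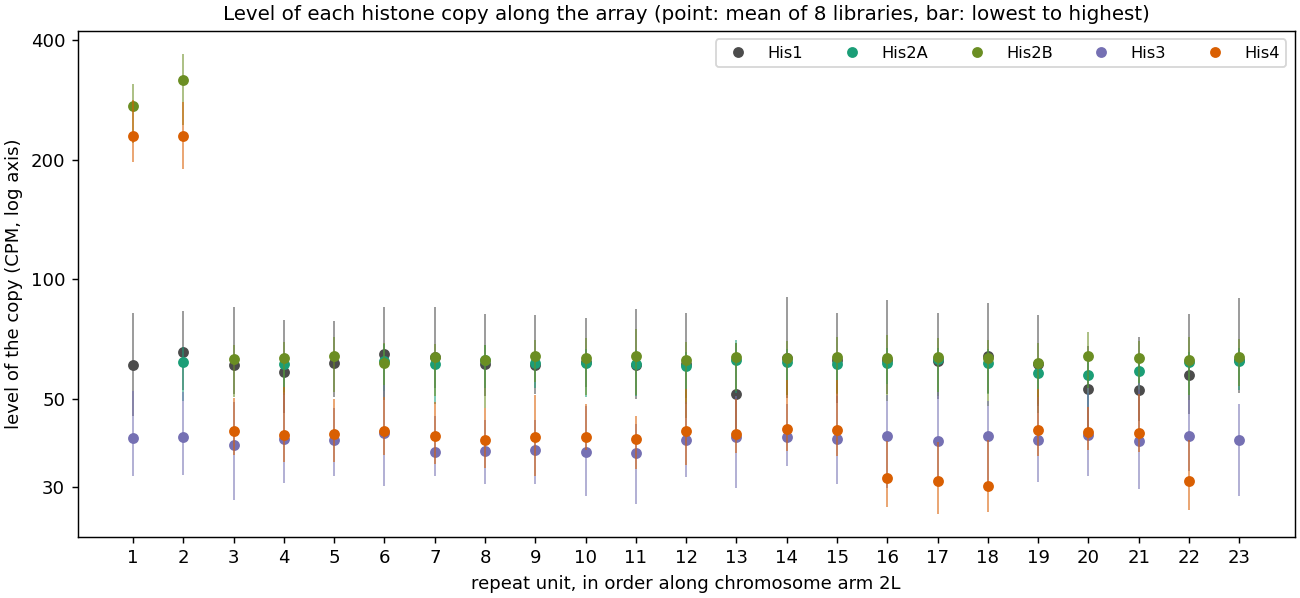
Level of each of the 111 copies in CPM (y axis, log scale) by repeat unit along chromosome arm 2L (x axis, units 1 to 23), coloured by type. Points are means of 8 libraries and bars run from the lowest to the highest library. The His2B and His4 copies of units 1 and 2 stand at 229 to 317 CPM, and the His4 copies of units 16, 17, 18 and 22 at 30.3 to 31.7 CPM.

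Per kilobase of exon, the median copy stood at 125 CPM for His2A, 107 CPM for His2B, 97.4 CPM for His4, 74.6 CPM for His3 and 60.0 CPM for His1. Annotated exon lengths were 1023 bases for His1, 476 to 493 for His2A, 595 for His2B, 529 for His3 and 412 to 528 for His4. Summed per kilobase as counted, the replication-dependent copies exceeded their replication-independent counterparts, which are made outside S phase as well. The labels do not say how reads that match several copies were treated, so these sums may be too high or too low. The median single copy of His2A, His3 and His4 stood below its counterpart. His3 copies summed to 1705 CPM per kilobase and His3.3A and His3.3B together to 687. For His4 the values were 2996 for the copies and 722 for His4r, which encodes the same H4 protein outside the array. His2A copies summed to 2486 and His2Av, which encodes the variant with H2A.Z and H2A.X functions, to 216.

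Between mir-11 KO(w-) and Canton S, no histone copy was called at an edgeR quasi-likelihood adjusted p under 0.05, against 4.75% of the 11068 genes tested. No copy had an unadjusted p under 0.05 either, against 2316 of 11068 genes. DESeq2 also called 0 copies. The all-copies sum differed by 0.04 on the log2 scale (SE 0.086, edgeR adjusted p = 0.828), in a fit that called 4.9% of 10958 rows. Type sums ranged from -0.06 for His2B to 0.18 for His1 (SE 0.080 and 0.165), with adjusted p from 0.583 to 0.981 and 4.89% of 10962 rows called. The median copy stood at 0.04 and the median of all genes at 0.01.

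For RMCE-1 against Canton S the outcome was similar, with 0 copies called against 6.06% of genes. An unadjusted p under 0.05 was reached by 8 of 111 copies and by 2572 of 11068 genes. DESeq2 called 0 copies. The all-copies sum differed by 0.10 (SE 0.086, edgeR adjusted p = 0.512; 6.24% of rows called). His1, His3 and His4 had log2 fold changes of 0.31, 0.22 and 0.18 (SE 0.165, 0.114 and 0.103) and His2A and His2B of -0.01 and -0.08, and the adjusted p of the 5 sums lay between 0.292 and 0.932, with 6.23% of rows called. Without RMCE-1 replicate 2 the values for His1, His3 and His4 were 0.05, 0.06 and 0.03, and with that replicate as the only RMCE-1 library 21 copies were called, all higher (12 His1, 4 His3 and 5 His4 copies), in a fit that called 5.5% of genes. RMCE-1 against mir-11 KO(w-) gave 0 copies called (0.352% of genes), 0 at an unadjusted p under 0.05 (999 of 11068 genes) and 0 by DESeq2. The all-copies sum differed by 0.06 (edgeR adjusted p = 0.877; 0.383% of rows called), and none of the 5 type sums was called (0.374% of rows).

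RMCE-2 was the stock with the lowest histone levels. Both RMCE-2 libraries lay below all 6 others for 82 of 111 copies, against 7.43% of the 11068 genes tested. By type this held for 18 of 20 His2A, 23 of 23 His2B, 19 of 23 His3, 18 of 22 His4 and 4 of 23 His1 copies. This count was chosen after the values were seen, and near-identical copies may share reads, so 82 copies are far fewer than 82 separate measurements.

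Against Canton S, 3 copies were called, all of His2B and all lower in RMCE-2, which is 2.70% of the 111 copies against 3.6% of all genes called in either direction and 1.6% called lower. His2B:CG33870 (unit 22, 2L 21532461 to 21533055) had 71.8 and 66.9 CPM for Canton S, 67.4 and 63.6 CPM for mir-11 KO(w-), 65.3 and 61.8 CPM for RMCE-1, and 49.6 and 54.9 CPM for RMCE-2. Against Canton S it changed by -0.41 on the log2 scale (SE 0.077, edgeR adjusted p = 0.0385). His2B:CG33904 (unit 5, 2L 21438170 to 21438764) had 71.7 and 67.9 CPM for Canton S, 67.0 and 66.1 CPM for mir-11 KO(w-), 68.3 and 64.9 CPM for RMCE-1, and 52.0 and 57.0 CPM for RMCE-2. The change was -0.36 (SE 0.069, edgeR adjusted p = 0.0410). The third, His2B:CG33910, is the high copy of unit 1 and changed by -0.37 (SE 0.077, edgeR adjusted p = 0.0495). For all 3 the groups did not overlap, which is likely for copies picked because they were called. The other 20 His2B copies had values of the same direction between -0.29 and -0.41. Copies that may share reads are not separate observations. The calls lie close to the threshold. DESeq2 called 6 copies, all of His2B and lower, and 6.07% of genes, whereas scaling by library totals alone and a fit of only the 4 libraries compared gave 0. Leaving out either Canton S library, either mir-11 KO(w-) library or RMCE-2 replicate 1 also gave 0, and leaving out RMCE-2 replicate 2 gave 1.

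As sums, no type passed the test in edgeR against Canton S, where 3.66% of rows were called. His2B came closest at -0.36 (SE 0.080, edgeR adjusted p = 0.0625), followed by His2A at -0.23 (SE 0.070, edgeR adjusted p = 0.134). DESeq2 called both (adjusted p = 0.00105 and 0.0464). His3, His4 and His1 stood at -0.23, -0.16 and -0.10 (edgeR adjusted p = 0.332, 0.449 and 0.804). The all-copies sum stood at -0.23 (SE 0.086, edgeR adjusted p = 0.213), with 3.66% of rows called in that fit too. The median copy stood at -0.21 and the median of all genes at 0.00, and 40 of 111 copies against 2142 of 11068 genes had an unadjusted p under 0.05.

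Against mir-11 KO(w-), RMCE-2 had negative fold changes for all 111 copies, with a median of -0.26 beside 0.00 for all genes, and no copy was called in edgeR (0.578% of genes). DESeq2 called 1 copy (2.27% of genes), and 55 copies had an unadjusted p under 0.05, against 1459 of 11068 genes. The all-copies sum stood at -0.27 (SE 0.087, edgeR adjusted p = 0.255; 0.557% of rows called). His3 stood at -0.33, His2B at -0.30, His1 at -0.28, His2A at -0.23 and His4 at -0.21, and the 5 adjusted p lay between 0.189 and 0.533 (0.556% of rows called). For His2B DESeq2 gave an adjusted p of 0.0339.

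RMCE-2 against RMCE-1 also had negative fold changes for all 111 copies, with a median of -0.33 beside -0.01 for all genes, and again 0 copies called in edgeR (1.68% of genes). DESeq2 called 2 (3.68% of genes), and 84 copies had an unadjusted p under 0.05, against 1766 of 11068 genes. With RMCE-1 replicate 2 as the only RMCE-1 library 28 copies were called lower, of His1, His3 and His4 alone, and 2.31% of genes. The all-copies sum stood at -0.33 (SE 0.087, edgeR adjusted p = 0.125; 1.71% of rows called) and passed only in DESeq2 (adjusted p = 0.0182). His3 stood at -0.45 (SE 0.114), His1 at -0.41 (SE 0.166), His4 at -0.35 (SE 0.103), His2B at -0.27 (SE 0.080) and His2A at -0.22 (SE 0.070), with adjusted p from 0.117 to 0.314 and 1.71% of rows called. DESeq2 called His3 and His2B (adjusted p = 0.0108 and 0.0373). Without RMCE-1 replicate 2 the all-copies sum stood at -0.24 (adjusted p = 0.393), with His1 at -0.14 and His2B at -0.33. The 3 comparisons of RMCE-2 share its 2 libraries, and those with Canton S share the Canton S libraries, so their directions are not separate results.

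**Figure D4:**
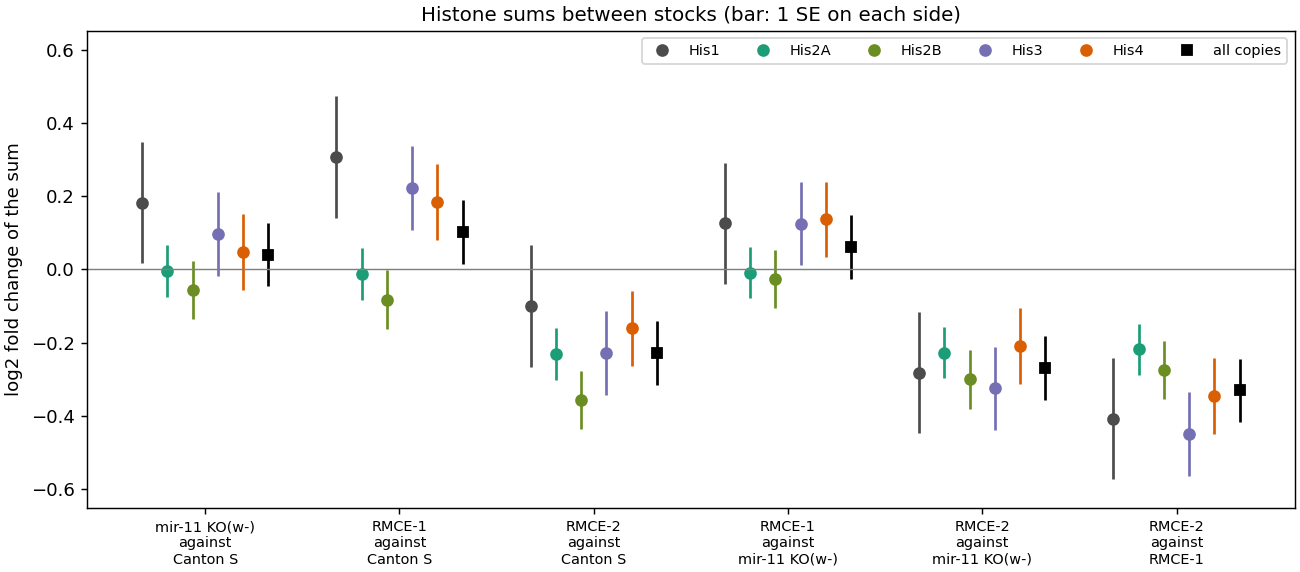
Log2 fold change (y axis) of each type sum (circles) and of the all-copies sum (squares) in the 6 comparisons of stocks (x axis), with bars of 1 SE on each side. All 18 values of the 3 comparisons that involve RMCE-2 lie below 0, from -0.10 to -0.45, and the others lie between -0.08 and 0.31.

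The summed markers of blood cells were also lowest in RMCE-2, though not every member was. The 12 hemocyte markers summed to 448 and 451 CPM for RMCE-2 against 787 and 1070 CPM for Canton S, 623 and 718 CPM for mir-11 KO(w-), and 662 and 726 CPM for RMCE-1, and 7 of the 12 were below all 6 other libraries in both RMCE-2 replicates, against 7.43% of all genes. Those were Hml, Pxn, eater, He, Sr-CI, vkg and PPO2. Against Canton S edgeR called 4 of the 12 lower and 0 higher, against 3.6% of all genes called. DESeq2 called 9 lower and 1 higher, against 6.07% of all genes. Of the rest, NimC1 had 2.47 and 4.51 CPM for Canton S against 8.44 and 8.42 CPM for RMCE-2 (log2 fold change 1.27, edgeR adjusted p = 0.0627) and is the member that DESeq2 called higher. The transcription factor gene lz was highest in RMCE-2, at 66.3 and 73.1 CPM against 53.1 to 64.7 CPM in the other 6 libraries, and crq lay between 76.6 and 83.1 CPM in all 8. None of the 12 was at 0 in both RMCE-2 libraries. Salivary gland markers summed to 200 and 204 CPM for RMCE-2 against 2370 and 1550 CPM for Canton S, 722 and 550 CPM for mir-11 KO(w-), and 189 and 4781 CPM for RMCE-1. Their median log2 fold changes in RMCE-2 were -6.06 against Canton S, -3.79 against mir-11 KO(w-) and -6.01 against RMCE-1. Of the 11, edgeR called 0 in each, against 3.6, 0.578 and 1.68% of all genes, with 1, 1 and 4 at an unadjusted p under 0.05. DESeq2 called 7 lower against Canton S, 5 lower against RMCE-1 and 1, CrebA, higher against mir-11 KO(w-). Its shares of all genes called there were 6.07, 3.68 and 2.27%. CrebA had 175 and 177 CPM for RMCE-2, most of the RMCE-2 sums. It had 161 and 182 CPM for Canton S, 137 and 133 CPM for mir-11 KO(w-), and 154 and 139 CPM for RMCE-1. Of the 11, 2 (Sgs3 and Sgs4) were below all 6 other libraries in both RMCE-2 replicates, against 7.43% of all genes. For so short a list that is not a result about it. Both genes were also low in RMCE-1 replicate 1, whose marker sum was 189 CPM. The median of -6.01 against RMCE-1 therefore rests on RMCE-1 replicate 2, at 4781 CPM. None of the 11 was at 0 in both RMCE-2 libraries. Fat body markers summed to 473 and 2065 CPM for RMCE-2 and to 997 and 669 CPM for Canton S. The sums were 266 and 93.2 CPM for mir-11 KO(w-), and 67.6 and 8461 CPM for RMCE-1. Only RMCE-1 replicate 2 exceeded RMCE-2 replicate 2. Against Canton S 8 of the 9 had positive log2 fold changes in RMCE-2 and 1 negative, with 0 called by edgeR (3.6% of all genes). Lsp1gamma, the negative one, had 190.5 and 126.7 CPM for Canton S and 2.45 and 0 CPM for RMCE-2. DESeq2 called it lower, against 6.07% of all genes called. The 8 glial markers summed to 891 and 940 CPM, inside 821 to 993 CPM. The part of blood cells, salivary gland and fat body in the histone levels was not tested.

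Replication-independent histone genes were not at their lowest in both RMCE-2 libraries. His3.3B, which encodes the H3.3 variant placed outside replication, had 1390 to 1590 CPM over the 8 libraries, His4r had 542 to 628 CPM, His2Av 236 to 293 CPM and His3.3A 93.0 to 114 CPM. This order held for 0 of the 6 genes of the list and for 7.43% of all genes, a share at which 0 of 6 is no result about the list. The median log2 fold change of the 5 tested was -0.12 in RMCE-2 against Canton S, with 2 positive and 3 negative. In RMCE-2 against Canton S the log2 fold changes were 0.12 for His3.3B, 0.03 for His4r and -0.12 for His2Av (SE 0.079, 0.080 and 0.091; edgeR adjusted p = 0.455, 0.868 and 0.547). His3.3A had 107 and 114 CPM for Canton S and 93.0 and 107 CPM for RMCE-2. Both His2Av and His3.3A had their lowest value in RMCE-2 replicate 1. None of the 5 was called in any of the 6 comparisons by edgeR or DESeq2, and 1 had an unadjusted p under 0.05, in RMCE-2 against mir-11 KO(w-). The centromeric H3 gene cid had 3.24 to 4.49 CPM, and the early-embryonic linker histone gene BigH1 at most 0.444 CPM, which left it out of the test. Whether these genes differ from the array genes in their change was not tested.

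The 20 matched genes of the histone locus body and of histone mRNA processing summed to between 1217 and 1324 CPM, and 0 of 19 tested members were called by edgeR or DESeq2 in any of the 6 comparisons, with 0 to 3 at an unadjusted p under 0.05. With 0.352 to 6.06% of all genes called per comparison, 0 calls is near the background for lists of this size, here and for the variants and chaperones. Their median log2 fold change in RMCE-2 against Canton S was -0.02. Slbp, the stem-loop binding protein gene, had 23.7 to 30.4 CPM, with its lowest value in RMCE-2 replicate 2 and a log2 difference of -0.12 in RMCE-2 against Canton S (SE 0.106, edgeR adjusted p = 0.586). The scaffold gene of the histone locus body, mxc, had 53.1 to 63.0 CPM and stood at 0.09 (SE 0.075, edgeR adjusted p = 0.573). Spt6, a transcription elongation factor, and Ars2, a factor of the cap-binding complex, were the most abundant at means of 256 and 182 CPM. Only FLASH and Lsm11 of the 20 were below all other libraries in both RMCE-2 replicates, a share near the 7.43% of all genes. The U7 small nuclear RNA itself was at 0.391 CPM or less, which is too low to compare.

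Histone chaperones and chromatin assembly factors, 13 genes, likewise had 0 calls by edgeR or DESeq2 in all 6 comparisons, with 0 to 2 at an unadjusted p under 0.05 and a median of -0.06 in RMCE-2 against Canton S. Nap1, a chaperone of H2A and H2B, had 358 to 403 CPM and Nlp, the nucleoplasmin-like protein gene, 301 to 332 CPM. Jabba, which holds histones on lipid droplets, had 21.7 CPM for RMCE-1 replicate 2 and at most 8.65 CPM elsewhere; its part in the pattern of that library was not tested, and it was singled out after its values were seen. Of the 13, Nasp and Caf1-55 were below all other libraries in both RMCE-2 replicates, against 7.43% of all genes, which for so short a list is not a result about it.

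S-phase and replication genes had 36 matched members, all tested. In RMCE-2 against Canton S 2 were called lower and 0 higher by edgeR, against 3.6% of all genes called and 1.6% called lower, and the median member stood at -0.12 beside 0.00 for all genes. Against mir-11 KO(w-) and RMCE-1 the median was -0.18 and -0.10 with 0 calls, against 0.578 and 1.68% of all genes called. RfC3, a subunit of the clamp loader, had 22.6 and 22.5 CPM for Canton S, 18.7 and 17.7 CPM for mir-11 KO(w-), 17.1 and 17.6 CPM for RMCE-1, and 14.3 and 14.0 CPM for RMCE-2. It was lower in RMCE-2 than in Canton S by 0.67 on the log2 scale (-0.67, SE 0.081, edgeR adjusted p = 0.00796) and in RMCE-1 by -0.38 (SE 0.081, edgeR adjusted p = 0.0435). Claspin, a replication checkpoint mediator, stood at 30.5 and 32.5 CPM for Canton S and 24.2 and 21.6 CPM for RMCE-2, a change of -0.46 (SE 0.093, edgeR adjusted p = 0.0474). The Claspin call and that of RfC3 in RMCE-1 were lost whichever of the 8 libraries was left out (adjusted p = 0.0596 to 0.172 and 0.079 to 0.176). That of RfC3 in RMCE-2 was lost without Canton S replicate 1 (adjusted p = 0.0544), RMCE-2 replicate 1 (0.0652) or RMCE-2 replicate 2 (0.0566). DESeq2 called RfC3 and Claspin lower in RMCE-2 as well, together with the replicative helicase gene Mcm7, and called stg higher. It called 6.07% of all genes there.

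PCNA, the sliding clamp of DNA replication, was at its lowest in RMCE-2, at 67.2 and 69.8 CPM against 74.9 to 87.9 CPM in the other 6 libraries, at -0.22 against Canton S on the log2 scale (SE 0.083, edgeR adjusted p = 0.206). Including PCNA, RfC3 and Claspin, 10 of the 36 genes were below all 6 other libraries in both RMCE-2 replicates, against 7.43% of all genes. The others were RnrS, E2f1, Orc2, RfC4 and the genes of DNA polymerases alpha and delta and of DNA ligase. CycE, the cyclin that drives entry into S phase, did not have this order, at 70.6 and 67.1 CPM for RMCE-2 within 51.7 to 70.7 CPM overall. E2f1, whose intron carries mir-11 and mir-998, had 220 and 210 CPM for Canton S, 228 and 230 CPM for mir-11 KO(w-), 209 and 201 CPM for RMCE-1, and 198 and 189 CPM for RMCE-2, and was called in none of the 6 comparisons by edgeR (smallest adjusted p = 0.151). The mitotic phosphatase gene stg was higher than in Canton S in mir-11 KO(w-), by 0.53 (SE 0.080, edgeR adjusted p = 0.0148), and in RMCE-1, by 0.47 (SE 0.080, edgeR adjusted p = 0.0213). In RMCE-2 against Canton S stg stood at 0.28 (SE 0.080, edgeR adjusted p = 0.111). The calls in mir-11 KO(w-) and RMCE-1 were both lost without Canton S replicate 1 (adjusted p = 0.0926 and 0.121) and without mir-11 KO(w-) replicate 1 (0.127 and 0.0723) or 2 (0.172 and 0.0744), and that in RMCE-1 also without RMCE-1 replicate 1 (0.0536). In the 3 comparisons without Canton S, edgeR and DESeq2 called 0 of the 36. With 0.352 to 1.68% of all genes called there by edgeR, 0 calls is near the background. DESeq2 called 2.27 and 3.68% in the 2 that involve RMCE-2. An edgeR unadjusted p under 0.05 was reached by 4 of 36 in RMCE-1 against mir-11 KO(w-) (999 of 11068 genes). The counts were 15 in RMCE-2 against mir-11 KO(w-) (1459 genes) and 8 in RMCE-2 against RMCE-1 (1766 genes).

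**Figure D5:**
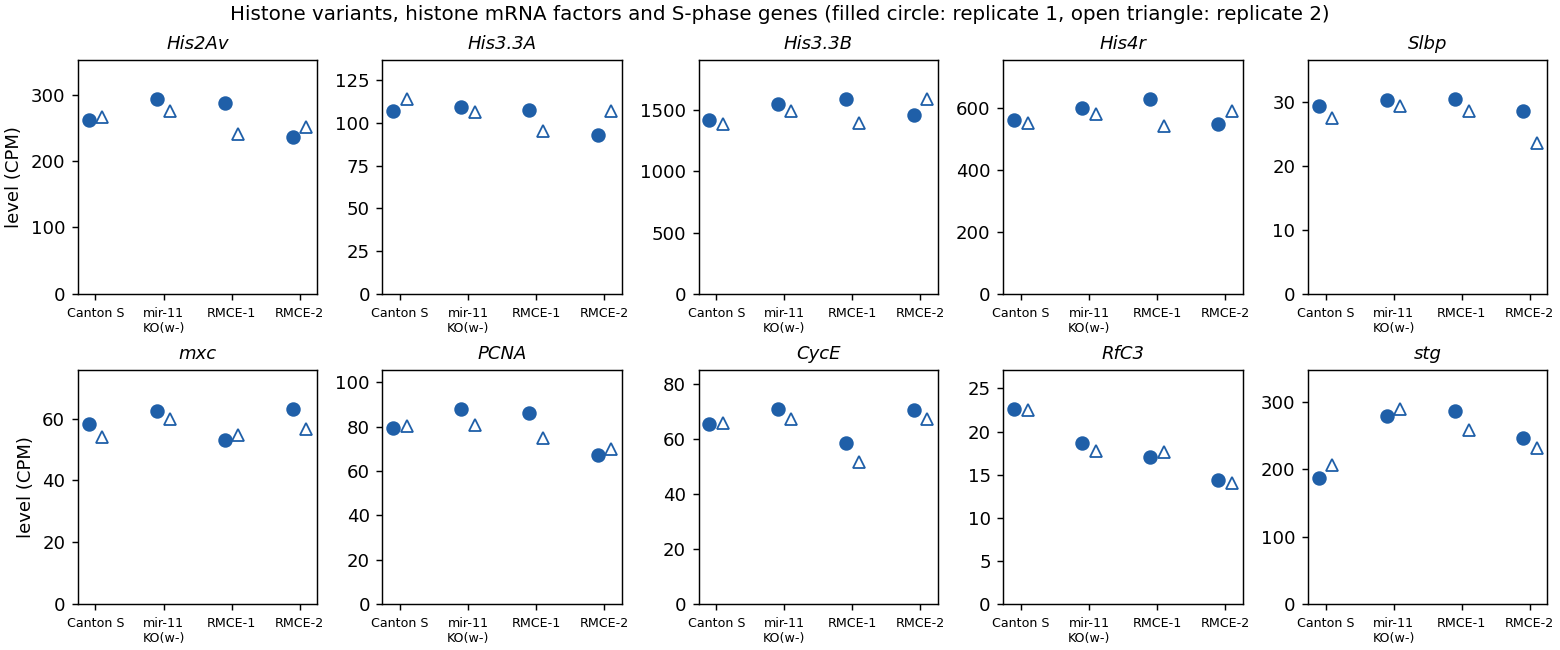
Level in CPM (y axis, from 0) of 4 histone variant genes, Slbp, mxc and 4 cell cycle genes by stock (x axis). Filled circles are replicate 1 and open triangles replicate 2. RfC3 goes from 22.6 and 22.5 CPM for Canton S to 14.3 and 14.0 CPM for RMCE-2, and PCNA is lowest in both RMCE-2 libraries. His2Av and His3.3A are lowest in RMCE-2 replicate 1. His3.3B is lowest in Canton S replicate 2 and His4r in RMCE-1 replicate 2.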

How the data were processed

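For each of the 8 libraries the authors deposited 1 table of whole-number read counts by FlyBase gene identifier, and the values show no scaling. Per the labels' protocols, RNA was extracted with Trizol and depleted of ribosomal RNA, and directional libraries were read as single ends of 50 bp. The submitters' processing notes name TopHat2, featureCounts from Subread, FastQC and CASAVA 1.8.2. The labels give neither build, annotation nor strand setting, and do not say how reads with several matches were treated. Of 15682 identifiers, 15001 matched a symbol in the reference tables and 681 did not.

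The quasi-likelihood test of edgeR 4.0.16 (R 4.3.3) was run on the counts in its robust form (TMM, filterByExpr, a mean per stock over 8 libraries, 4 residual degrees of freedom, Benjamini-Hochberg adjustment over all rows, called under 0.05). There were 3 fits, with single copies, copies summed by type, and all copies summed, and they were checked on simulated data. The common biological coefficient of variation was 20.6%. Alternatives included DESeq2 1.42.0. The p-values measure the spread between samples labelled as biological replicates, each a pool of discs. A replicate number is not said to mark a shared day or batch. Intervals of shares are exact binomial at 95%.

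Members and gene lists were chosen with earlier results of these data known. Of 153 listed symbols, 145 matched, and the tim of the replication list is the clock gene. Named copies are the highest and lowest of each type and every called copy, and named list genes are up to 4 called members or else the 2 most abundant, plus Slbp, mxc, PCNA, CycE, His2Av, His3.3A, His3.3B and His4r; others named were chosen after their values were seen. No sequences are printed.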

Additional observations from a re-analysis of the deposited data

How the results depend on the processing

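Of 108 values of the all-copies sum outside the main setting, 103 kept their direction and their side of the threshold. Those that did not were 1 that passed and 4 that turned sign near 0. The sum of RMCE-2 against RMCE-1 passed in DESeq2 (-0.33, adjusted p = 0.0182). The sum of mir-11 KO(w-) against Canton S fell to -0.00071 without Canton S replicate 2, and that of RMCE-1 against mir-11 KO(w-) fell to -0.00039 by library totals alone, to -0.038 without the pair that stood apart (replicate 1 of Canton S with replicate 2 of RMCE-1), and to -0.033 without RMCE-1 replicate 2. Leaving out 1 library at a time, the sums ran from -0.00071 to 0.082 for mir-11 KO(w-) against Canton S, 0.02 to 0.19 for RMCE-1 against Canton S, -0.31 to -0.15 for RMCE-2 against Canton S, -0.03 to 0.14 for RMCE-1 against mir-11 KO(w-), -0.35 to -0.18 for RMCE-2 against mir-11 KO(w-) and -0.41 to -0.24 for RMCE-2 against RMCE-1. The causes were not tested.

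The 3 copies called in RMCE-2 against Canton S became 6 in DESeq2, 0 by library totals alone, 0 with only the 4 libraries compared and 0 without the pair, and 0 to 4 when 1 library was left out. Leaving out Canton S replicate 1 or 2, mir-11 KO(w-) replicate 1 or 2, or RMCE-2 replicate 1 gave 0, and leaving out RMCE-2 replicate 2 gave 1. DESeq2 called 1 copy in RMCE-2 against mir-11 KO(w-) and 2 in RMCE-2 against RMCE-1. Leave-one-out counts ran from 0 to 21 in RMCE-1 against Canton S and from 0 to 28 in RMCE-2 against RMCE-1, both maxima without RMCE-1 replicate 1, where the stock is RMCE-1 replicate 2 alone and is assumed to vary like the others.

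With the replicate number as a block, 0 copies were called in RMCE-2 against Canton S, and the all-copies sum stood at -0.23 (adjusted p = 0.283). Deviations of same-numbered samples correlated at 0.306 for Canton S and mir-11 KO(w-) and at -0.353 to -0.104 for the other 5 pairs of stocks. With a single difference per stock, these values cannot show whether a number marks a shared day or batch. The crossed pairing was not used.

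Type sums near 0 turned sign in 29 of 510 values. For His2A in mir-11 KO(w-) against Canton S these were 0.015 by library totals alone, 0.037 without the pair, and -0.024 to 0.015 leaving out 1 library. In RMCE-1 against Canton S, His2A stood at 0.033 and His2B at 0.024 without the pair, and His2A at -0.036 to 0.021 leaving out 1 library. Without the pair His2B stood at 0.0026 in mir-11 KO(w-) against Canton S and His1 at 0.00057 in RMCE-2 against Canton S. In RMCE-1 against mir-11 KO(w-), His2A stood at 0.0035 in DESeq2, 0.0054 with RLE factors, 0.0018 without a filter, 0.0064 with only the 4 libraries compared and -0.026 to 0.0061 leaving out 1 library. In the same comparison His1, His2B, His3 and His4 stood at -0.15, 0.021, -0.052 and -0.035 without the pair, and leaving out 1 library they ran from -0.14 to 0.35, -0.088 to 0.027, -0.046 to 0.27 and -0.029 to 0.28, the negative ends of His1, His3 and His4 coming without RMCE-1 replicate 2. His3 in RMCE-2 against RMCE-1 passed without RMCE-1 replicate 1 (-0.60, adjusted p = 0.0487). Of 128 values of called single genes and copies, 72 lost the call with the same direction.

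After the data were seen, the sums were recomputed without the 4 highest copies and with the 8 pseudogenes, and RMCE-2 against Canton S stood at -0.21 and -0.23. With 2 libraries per stock, the calls in RMCE-2 moved between 0 and 6 with the setting.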
